A study of Mus musculus with 2 samples.

Results

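Mir107, Mir103-2, Mir103-1 and Mir33 are 4 miRNA genes that lie inside introns of metabolic genes, and they make up 4 of the 2202 miRNA genes counted in the series. They were chosen by name and host gene rather than by their levels, though earlier results of these data were known. The 3 members of the miR-103/107 family sit in Pank1, Pank2 and Pank3, which encode pantothenate kinases, and Mir33 sits in Srebf2. Small RNA was sequenced from adrenal glands of female B6CASTF1/J mice aged 14 days, an F1 cross of C57BL/6J and CAST/EiJ. All samples belong to 1 group of 2 libraries, called replicate 1 and replicate 2 here, with no treatment and no second condition. The label of replicate 1 names 3 females and that of replicate 2 a numbered female, and both give the same donor identifier. Whether replicate 1 pooled animals is not given in the sources used here.

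Pantothenate kinases catalyse the first and rate-limiting step of coenzyme A synthesis, and coenzyme A carries the acyl groups of fatty acid and sterol metabolism. Srebf2 encodes SREBP-2, the transcription factor that switches on genes of cholesterol supply when cell sterols run low. The miRNA in its intron, miR-33, represses the cholesterol exporter gene Abca1, and miR-103 and miR-107 are known for effects on insulin sensitivity and, through Dicer, on miRNA processing. The adrenal cortex takes up, makes and stores cholesterol as the starting material of its steroid hormones. An intronic miRNA of this kind is often cut out of the host transcript, but the libraries measure small RNA only, so no host gene was measured. Protein-coding markers of adrenal cortex or medulla were not measured either.

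The mature sequences are shown first, because what the counts can tell apart depends on them. They are RefSeq sequences on build GRCm38.p6, 5′ to 3′, with the seed (bases 2 to 8, the part that pairs with targets) in capitals. In the miR-103/107 family the 3p arm is known as the main product, and in Mir33 the 5p arm.
miR-107-3p (Mir107): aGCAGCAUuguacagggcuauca
miR-103-3p (Mir103-2 and Mir103-1): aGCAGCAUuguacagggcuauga
miR-107-5p (Mir107): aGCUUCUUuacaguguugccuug
miR-103-2-5p (Mir103-2): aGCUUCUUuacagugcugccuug
miR-103-1-5p (Mir103-1): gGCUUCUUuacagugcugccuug
miR-33-5p (Mir33): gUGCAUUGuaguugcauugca
miR-33-3p (Mir33): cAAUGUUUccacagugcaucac

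Mir103-2 and Mir103-1 encode the same 3p mature sequence. Counted from 1 at the 5′ end, miR-103-3p and miR-107-3p differ over 23 bases only by G22C, next to the 3′ end, so the 3 genes share their 3p seed. On the 5p arm, miR-103-2-5p differs from miR-103-1-5p by A1G and from miR-107-5p by C16U. Neither arm of Mir33 shares its seed with these. Of the 2202 counted genes, 1018 matched an entry of the RefSeq miRNA table by symbol, and among those no gene outside the 4 had a mature sequence with the seed of any member arm.

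The hairpins show where the genes do differ. Mature arms are in capitals, and positions are on build GRCm38.p6 with the coordinates that GENCODE M21 gives on mm10.
Mir107, chromosome 19, 34820687 to 34820773, minus strand: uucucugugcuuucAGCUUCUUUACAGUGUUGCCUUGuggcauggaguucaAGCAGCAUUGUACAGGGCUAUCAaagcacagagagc
Mir103-2, chromosome 2, 131288052 to 131288137, plus strand: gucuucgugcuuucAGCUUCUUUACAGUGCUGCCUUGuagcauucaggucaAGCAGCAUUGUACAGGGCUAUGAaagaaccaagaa
Mir103-1, chromosome 11, 35782396 to 35782481, plus strand: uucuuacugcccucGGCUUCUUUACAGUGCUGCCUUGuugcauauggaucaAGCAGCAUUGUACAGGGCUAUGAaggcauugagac
Mir33, chromosome 15, 82198122 to 82198190, plus strand: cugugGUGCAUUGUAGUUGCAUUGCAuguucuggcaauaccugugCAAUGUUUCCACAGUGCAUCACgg

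Mir103-2 and Mir103-1 were identical at 69 of 86 positions (80.2%), and their longest shared run was 27 bases. Mir107 shared runs of up to 24 bases with each of them, whereas Mir33 shared no more than 8 bases with any of the 3. Minimum free energies from RNAfold were -41.2, -31.8, -35.8 and -32.2 kcal/mol for Mir107, Mir103-2, Mir103-1 and Mir33. Per base, the hairpins of Mir107 and Mir33 stood at -0.474 and -0.467 kcal/mol, against a median of -0.369 over all 2202 hairpins, and 17.3% and 18.4% of those were more stable. Mir103-2, at -0.370, lay at the median.

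The 3 Pank genes carry their miRNA in the same place. In the coding transcript with the longest coding sequence, Mir107, Mir103-2 and Mir103-1 all lie in intron 5 of 6, on the strand of the host. The intron is 7282 bases long in Pank1, 5801 in Pank2 and 1740 in Pank3. The hairpin begins 326, 454 and 688 bases after the upstream exon in Pank1, Pank2 and Pank3, so in each it lies nearer to that exon than to the next. Mir33 lies in intron 16 of 18 of Srebf2, 335 bases into an intron of 1848. Each host holds no other annotated miRNA gene on its strand, and the nearest miRNA gene on the chromosome is between 70.1 and 247.7 kb away. None of the 4 therefore belongs to a miRNA cluster.

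**Figure D1:**
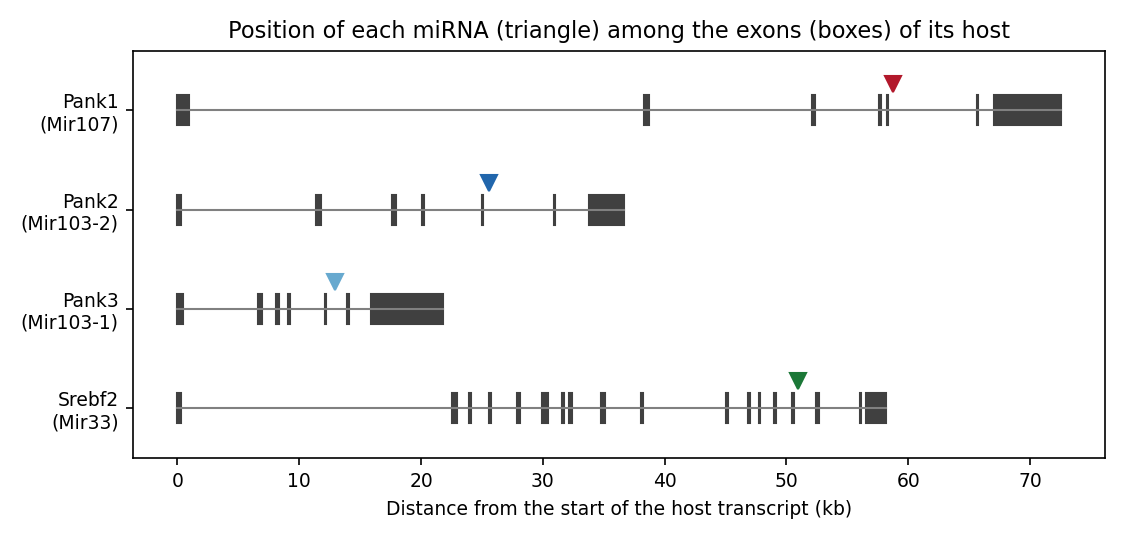
Host genes Pank1, Pank2, Pank3 and Srebf2 drawn to scale, with exons as boxes, introns as lines and the miRNA as a triangle; the horizontal axis is the distance from the start of the host transcript in kb. The triangle stands in intron 5 of 6 in all 3 Pank genes and in intron 16 of 18 in Srebf2.

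The deposited counts set aside reads that map to several places, 3002371 reads (28.0%) in replicate 1 and 2795730 (25.0%) in replicate 2. How that bears on the members was worked out from the annotated hairpins alone, by exact matches on either strand. A read that starts at the first base of miR-103-3p or miR-107-3p matches all 3 hairpins while it is at most 21 bases long. From 22 bases on, a miR-107-3p read matches Mir107 alone. A miR-103-3p read of 22 to 24 bases still matches Mir103-2 and Mir103-1, and only from 25 bases, longer than the 23-base mature form, does it match 1 hairpin. A full-length miR-103-3p read can thus not be given to either gene, and Mir103-2 and Mir103-1 can be counted only from longer or shifted 3p reads or from the 5p arm.

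The 5p arms of all 3 genes were unique from 16 bases when read from their first base. Read from the second base, miR-103-2-5p and miR-103-1-5p matched both hairpins up to 23 bases. Mir33 was unique at every length tried. Over all windows of 22 bases, 61 of 66 (92.4%) were unique to Mir107, 55 of 65 (84.6%) to Mir103-2, 57 of 65 (87.7%) to Mir103-1 and 48 of 48 to Mir33, against 100% for the median annotated hairpin. How many of the reads set aside came from miR-103-3p was not measured.

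**Figure D2:**
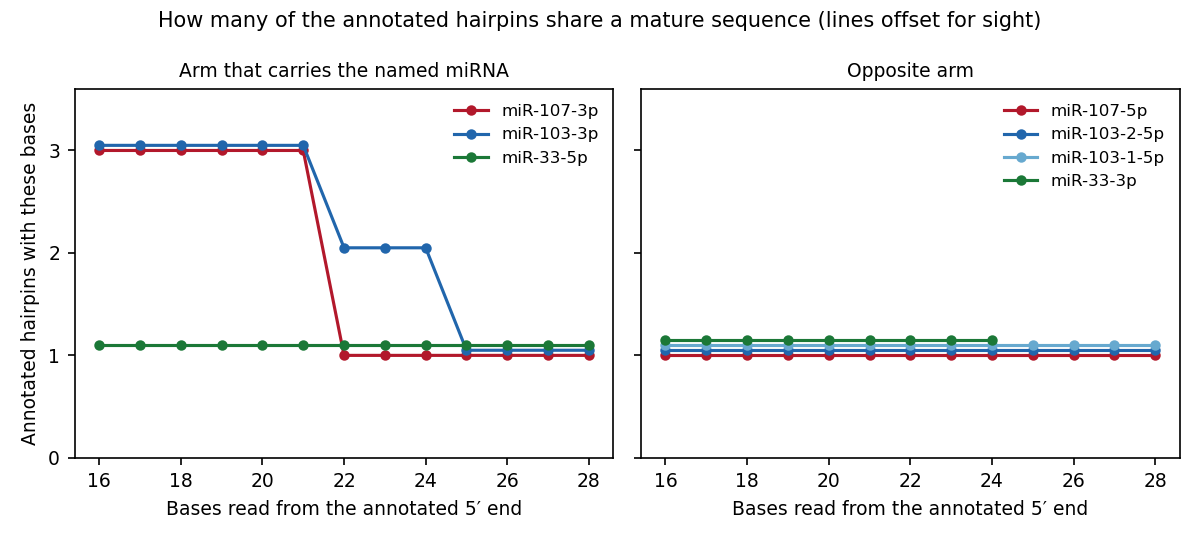
Number of annotated hairpins (vertical axis) that contain the first bases of each mature sequence, by the number of bases read from its 5′ end (horizontal axis), for the main arm on the left and the other arm on the right. miR-107-3p falls to 1 hairpin at 22 bases and miR-103-3p only at 25 bases, while miR-33-5p matches 1 hairpin throughout.

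The libraries held 10720796 and 11190481 reads in replicates 1 and 2, of which 3797107 and 5034257 were counted on miRNA genes. Levels are given in CPM, counts per 1000000 counts on miRNA genes, with 95% Wilson intervals. These intervals cover the counting error of reads only, and reads carried no molecular identifiers. A small RNA read spans a whole miRNA, so counts were not divided by gene length. Detection was set at 10 counts or more in both libraries. All 4 members reached it, as did 358 of the 2202 genes (16.3%). All 8 listed markers of tissues other than the adrenal were detected, and several stood apart between the libraries. Mir122 of liver held 0.290% of counts in replicate 1 and 21.5% in replicate 2, and Mir206 of skeletal muscle 0.00279% and 0.155%. Mir192 and Mir194-2, of kidney, gut and liver, held 0.0106% in replicate 1 and 0.115% in replicate 2. Mir451a and Mir144 of red blood cells held 0.219% in replicate 1 and 0.0531% in replicate 2, and Mir142 and Mir223 of leukocytes 0.159% and 0.0517%. In both pairs 1 gene carried the difference: Mir451a had 1859 and 338 CPM and Mir142 1474 and 402 CPM in replicates 1 and 2, while Mir144 had 334 and 192 CPM and Mir223 115 CPM in both. Tissue RNA does not tell fewer cells of a type from less miRNA per cell.

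Nearly all counts of the 4 genes came from Mir107. Mir107 had 14525 counts in replicate 1 and 8277 in replicate 2. That is 3825 CPM (3764 to 3888) in replicate 1 and 1644 CPM (1609 to 1680) in replicate 2, a mean of 2735 ± 1542 CPM (SD, n = 2). It ranked 38th in replicate 1 and 53rd in replicate 2 of all genes, so it was among the genes with more placed reads in both. These ranks do not order miRNA molecules, because genes that share a mature sequence can lose reads.

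Mir103-2, in Pank2, had 131 counts in replicate 1 and 70 in replicate 2. Its level was 34.5 CPM (29.1 to 40.9) in replicate 1 and 13.9 CPM (11.0 to 17.6) in replicate 2, with a mean of 24.2 ± 14.6 CPM (SD, n = 2). Mir107 exceeded it 111-fold in replicate 1 and 118-fold in replicate 2.

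Mir103-1, in Pank3, had 16 counts in replicate 1 and 17 in replicate 2, close to the detection minimum. Its level was 4.21 CPM (2.59 to 6.85) in replicate 1 and 3.38 CPM (2.11 to 5.41) in replicate 2, a mean of 3.80 ± 0.592 CPM (SD, n = 2). A low value of Mir103-2 or Mir103-1 does not show that miR-103 is scarce in the gland. By the hairpin matches, full-length miR-103-3p reads cannot be placed in either gene.

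Mir33, the Srebf2 miRNA, had 53 counts in replicate 1 and 38 in replicate 2. Its level was 14.0 CPM (10.7 to 18.3) in replicate 1 and 7.55 CPM (5.50 to 10.4) in replicate 2, a mean of 10.8 ± 4.53 CPM (SD, n = 2). Its hairpin is unique among those annotated, so the sharing that limits Mir103-2 and Mir103-1 does not apply to it. Mir107 exceeded it 274-fold in replicate 1 and 218-fold in replicate 2. The precision of Mir33 is limited by these few counts.

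**Figure D3:**
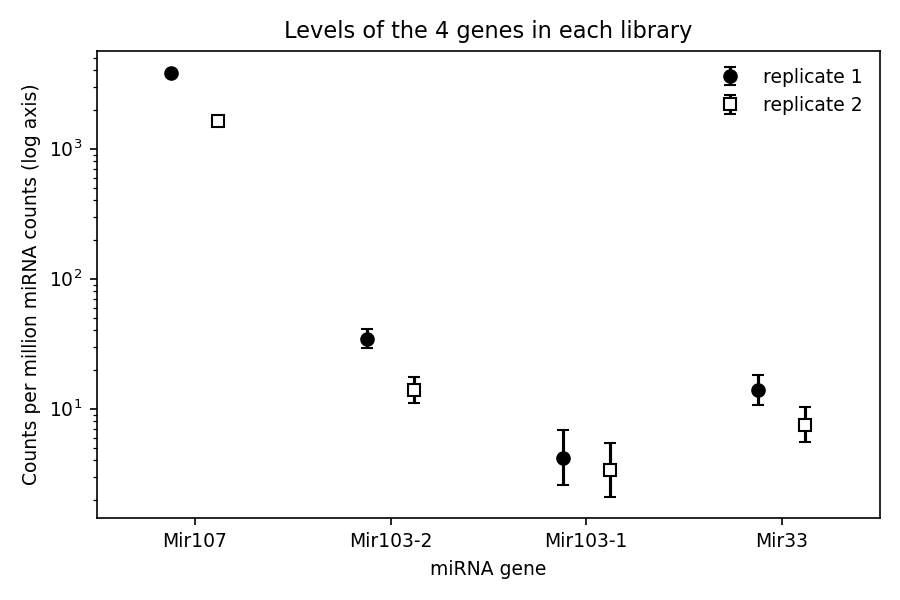
Level of each gene in CPM (log axis) in replicate 1 (filled circles) and replicate 2 (open squares), with Wilson 95% intervals as bars. Mir107 stands at 3825 and 1644 CPM, and the other 3 genes lie at 34.5 CPM or less in both libraries.

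In order of level, Mir107 came first, then Mir103-2, Mir33 and Mir103-1, and this order was the same in both libraries. It is an order of reads that could be placed, not of miRNA molecules. By the hairpin matches, full-length miR-103-3p reads cannot be placed in Mir103-2 or Mir103-1, whereas Mir33 is unique. The ranges of Mir107 and Mir103-2 over the libraries did not overlap. Those of Mir103-2 and Mir33 touched, at 13.9 CPM for Mir103-2 in replicate 2 and 14.0 CPM for Mir33 in replicate 1, so across the libraries their levels were not separated. Within each library Mir103-2 was the higher, 2.47-fold in replicate 1 and 1.84-fold in replicate 2, and their counting intervals did not overlap there. The range of Mir33 over the libraries lay above that of Mir103-1, at 7.55 CPM against 4.21 CPM at their nearest. Within each library the counting intervals of Mir33 and Mir103-1 did not overlap, but that of Mir33 in replicate 2 (5.50 to 10.4) overlapped that of Mir103-1 in replicate 1 (2.59 to 6.85). Dividing counts by hairpin length kept the order, with Mir107 then 113-fold above Mir103-2, Mir103-2 1.73-fold above Mir33, and Mir33 3.46-fold above Mir103-1.

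Within the miR-103/107 family Mir107 held the same share of the counts in both libraries. It made up 99.0% of the family's 14672 counts in replicate 1 (98.8 to 99.1) and 99.0% of its 8364 counts in replicate 2 (98.7 to 99.2). Mir103-2 made up 0.893% (0.753 to 1.06) in replicate 1 and 0.837% (0.663 to 1.06) in replicate 2. Mir103-1 made up 0.109% (0.0671 to 0.177) in replicate 1 and 0.203% (0.127 to 0.325) in replicate 2. The intervals of the libraries overlapped for each of the 3 genes. These shares describe reads that could be placed, not the shares of miR-107 and miR-103 molecules.

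Together the 4 genes held 0.388% of miRNA counts in replicate 1 (0.382 to 0.394) and 0.167% in replicate 2 (0.163 to 0.170), a mean of 0.277% ± 0.156 (SD, n = 2). With Mir122 left out of the totals the mean was 0.301%. None of the 4 had a count on the opposite strand in either library, and the counts made without regard to strand were identical to the strand-specific ones.

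Set against all 358 detected genes, the members covered most of the range of levels. By mean CPM, Mir107 ranked 45th, Mir103-2 260th, Mir33 294th and Mir103-1 343rd. Of the 776 miRNA genes that lie only in introns of coding genes on the same strand, 131 (16.9%) were detected, with a median level of 102 CPM. Mir107 was 20th of those 131, and Mir103-2, Mir33 and Mir103-1 were 96th, 107th and 129th, all below the median of intronic genes. Such ranks order reads that could be placed, not miRNA molecules. By the hairpin matches, full-length reads of the main arm cannot be placed in Mir103-2 or Mir103-1, whereas Mir33 is unique. The low ranks of Mir103-2 and Mir103-1 therefore do not show weak expression. Genes at other locations were detected in 15.9% of 1426 cases, with a median of 135 CPM, so intronic genes as a class were detected about as often.

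**Figure D4:**
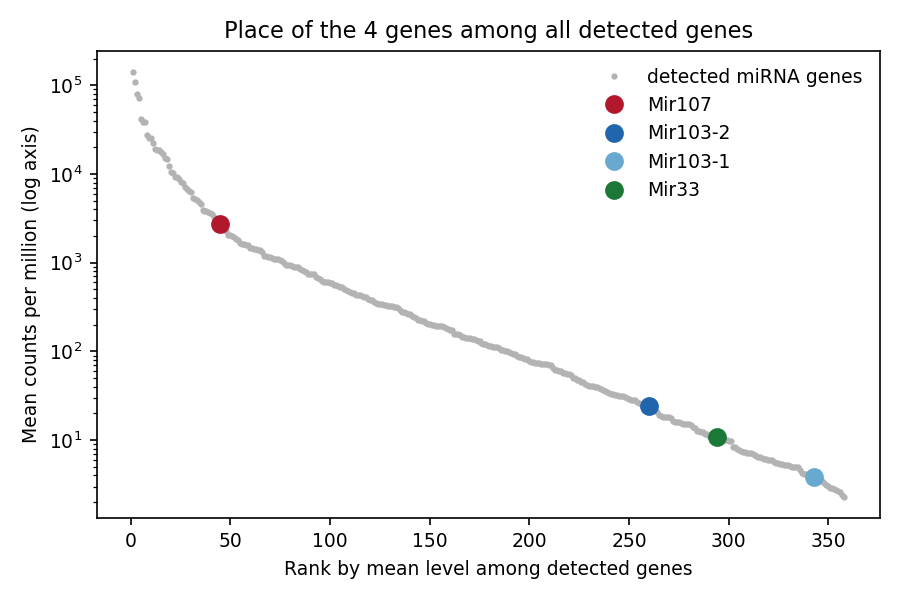
Mean CPM (log axis) of the 358 detected miRNA genes against their rank, with the 4 genes in colour. Mir107 stands at rank 45, and Mir103-2, Mir33 and Mir103-1 stand at ranks 260, 294 and 343, in the lower part of the curve. Ranks order reads that could be placed, not miRNA molecules.

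The detected genes with a shared mature sequence had lower median levels than those with none. Among the genes matched to RefSeq, 57 shared a part of their mature sequences with another gene, Mir103-2 and Mir103-1 among them. Of these 43 (75.4%) were detected, with a median of 48.1 CPM, and Mir103-2 and Mir103-1 ranked 28th and 41st of the 43. Of 35 genes whose mature sequences were all shared, 5 (14.3%) were detected, with a median of 14.6 CPM. Of 926 genes with no shared mature sequence, 275 (29.7%) were detected, with a median of 137 CPM. Mir107 was 39th and Mir33 229th of those 275. The medians cover detected genes only, and the classes were detected at different rates. The 3 classes are descriptions of this table and were not tested against each other.

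The detected genes closest to each member in level were found by the distance between log2(CPM + 1) values over the 2 libraries. For Mir107 these were Mir100, Mir431 and Mir7b, at distances of 0.44, 0.55 and 0.62. For Mir103-2 they were Mir34b, Mir6516 and Mir212, at 0.42, 0.44 and 0.44. For Mir33 they were Gm23935, Mir96 and Mir547, at 0.10, 0.16 and 0.20, and for Mir103-1 they were Mir3070a, Mir491 and Mir5132, at 0.14, 0.15 and 0.17. Mir96, with 15.3 CPM in replicate 1 and 8.14 CPM in replicate 2, is itself a miRNA studied in cholesterol uptake.

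Between the libraries, Mir107 and Mir103-2 were higher in replicate 1 by similar amounts. Ratios were scaled by TMM, which leaves the median of all detected genes at a log2 ratio of 0.06. The log2 ratio of replicate 1 over replicate 2 was 0.79 for Mir107 (95% counting interval 0.75 to 0.83) and 0.88 for Mir103-2 (0.45 to 1.32), that is 1.73-fold and 1.84-fold. Both intervals lay above 0. For Mir33 the log2 ratio was 0.45 (-0.17 to 1.10) and for Mir103-1 -0.11 (-1.19 to 0.96), intervals that hold 0, so a difference was not detectable at this depth under this scaling. The interval of Mir103-1 holds the ratios of Mir107 and Mir103-2 as well.

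Each detected gene was tested by an exact two-sided binomial test of its counts, with Benjamini-Hochberg adjustment over all 358. The test compares the reads of these libraries only, not animals or conditions. The adjusted p was 5.61e-05 for Mir103-2, 0.191 for Mir33 and 0.893 for Mir103-1, and for Mir107 it was too small to be represented. By the adjusted p alone, 67.9% of the detected genes differed, and 2 of the 4 members did, so passing it was no distinction. With an absolute log2 ratio of at least 1 asked as well, 31 genes (8.66%) were higher and 33 (9.22%) lower in replicate 1, and 0 of the 4 members were among either. Of the detected genes, 27.4% had a larger absolute ratio than Mir107 and 22.6% a larger one than Mir103-2. In edgeR's exact test, with a common dispersion estimated from the same 2 libraries (biological coefficient of variation 0.444), 6 genes had an adjusted p under 0.05 and 15 an unadjusted p under 0.05, and all 4 members had an adjusted p of 1. That dispersion comes from the difference it is used to test, so these p-values give no check on the members.

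These ratios moved with the scaling. Under library totals alone, which put the median of all genes at 0.49, the log2 ratios of Mir107 and Mir103-2 were 1.22 and 1.31, past the ratio minimum, and that of Mir103-1 turned to 0.32. Under the same totals the log2 ratio of Mir33 was 0.88, with an adjusted p of 0.00582 in the exact binomial test, so that its adjusted p passed 0.05 while its ratio stayed under the minimum. With Mir122 left out of the totals they were 0.87 for Mir107, 0.96 for Mir103-2, 0.54 for Mir33 and -0.02 for Mir103-1. The part of the liver, muscle and blood markers in the members' values was not tested.

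**Figure D5:**
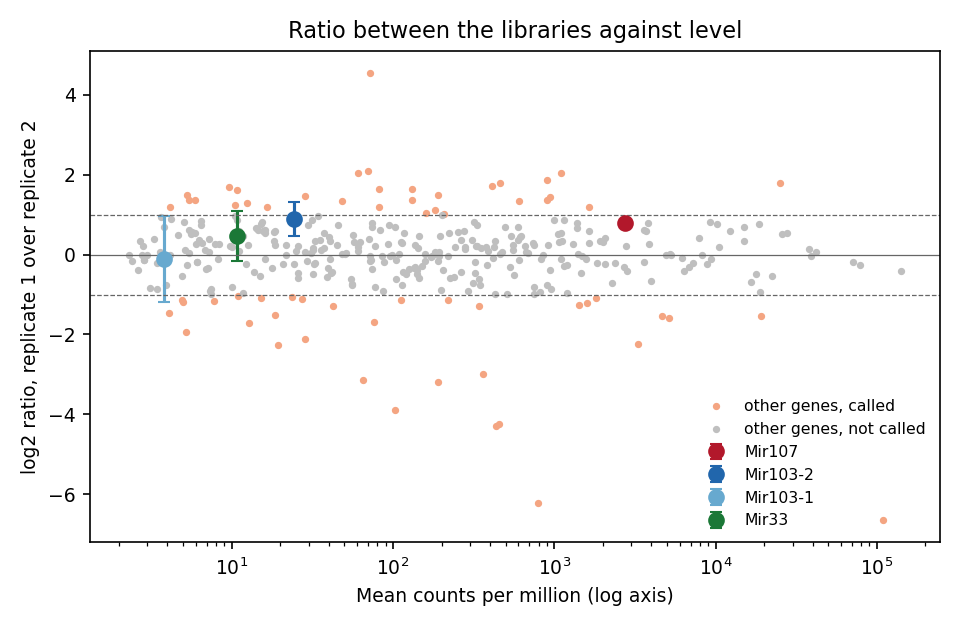
Log2 ratio of replicate 1 over replicate 2 (vertical axis, TMM-scaled) against mean CPM (log axis) for the 358 detected genes, with counting intervals on the 4 members and dashed lines at a ratio of 1 and -1. Mir107 and Mir103-2 stand at 0.79 and 0.88, inside the dashed lines, and the intervals of Mir33 and Mir103-1 cross 0.

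The first bases of miR-103 and miR-107 recur one place further in within another family. Their first 7 bases (AGCAGCA) lie within the first 8 bases of a mature miRNA of 11 other genes, mainly the miR-15/16 family, which is known for repressing cell-cycle genes. Of those 11 genes 7 were detected, and together they held 3.45% of counts in replicate 1 and 2.24% in replicate 2. Mir322, X-linked, led them at 18604 ± 10283 CPM (SD, n = 2), and Mir195a and Mir15a followed at 3298 ± 2588 and 2824 ± 18.6 CPM. Mir107, at 2735 ± 1542 CPM, lay near Mir15a and above Mir15b (1483 ± 291), Mir16-1 (1312 ± 438), Mir497 (534 ± 32.6) and Mir16-2 (380 ± 112). Mir16-1 and Mir16-2 share the mature miR-16-5p, so their counts are uncertain in the same way as those of Mir103-2. The summed share above carries the same limit, and whether miR-107 exceeds miR-16 in molecules was not measured. Mir195a was called lower in replicate 1, with a log2 ratio of -2.23, and the other 6 were not called, Mir322 standing at 0.76. Mir6342, Mir6353, Mir6419 and Mir195b had 0 counts in both libraries, where 3 counts would be 0.790 CPM in replicate 1 and 0.596 CPM in replicate 2.

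The members were also placed among 30 other miRNA genes studied in cholesterol and lipid metabolism, a list chosen with earlier results of these data known. Of the 30, 29 were detected. Of these 29 and the 4 members, Mir107 was 6th of 33 by mean CPM, Mir103-2 was 27th, Mir33 30th and Mir103-1 33rd. Over all 358 detected genes Mir107 ranked 45th, so its place in the list is no distinction. By library, Mir107 stood 4th of the 33 in replicate 1 and 7th in replicate 2, and Mir33 30th and 29th. The list holds genes such as Mir26a-1 and Mir26a-2 that share a mature sequence. These places therefore order reads that could be placed, not miRNA molecules. Mir378a stood 1st in replicate 1 and 2nd in replicate 2, and Mir122 6th and 1st; both are linked to hepatic lipids, whose other 3 genes stood between 15th and 23rd in both libraries. Mir122 had 2896 CPM in replicate 1 and 214538 CPM in replicate 2, and Mir378a, in a Ppargc1b intron, 77614 and 65234 CPM. Mir10b and Mir27b, studied as repressors of the exporters ABCA1 and ABCG1, stood at 14983 ± 7824 and 3853 ± 1279 CPM (SD, n = 2). Mir125a and Mir455, studied as repressors of the HDL receptor SR-B1 in steroid-making cells, stood at 4626 ± 2383 and 1465 ± 22.5 CPM.

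Mir182 and Mir183, whose cluster SREBP-2 is known to induce, stood at 899 ± 146 and 112 ± 38.6 CPM (SD, n = 2), both above Mir33. The other member of that cluster, Mir96, stood at 11.7 ± 5.04 CPM, close to Mir33.

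Of the 29 detected genes, 2 were called higher in replicate 1, 4 lower and 23 neither, beside 8.66% higher and 9.22% lower over all detected genes. Their median log2 ratio was 0.24, beside 0.06 over all detected genes. By role, of 11 linked to ABCA1 and ABCG1 export, 2 were higher and 1 lower, with a median of 0.69. Of 7 linked to SR-B1, 1 was lower, with a median of -0.43. Of 2 of the SREBP circuit, 1 was lower, with a median of -0.95, and of 5 linked to hepatic lipids, 1 was lower, with a median of -0.18. With so few genes a role, nothing is read from these counts. The genes called were Mir26a-1 (4.54) and Mir302a (1.37) above and Mir145a (-1.27), Mir125a (-1.53), Mir183 (-1.14) and Mir122 (-6.64) below, and Mir26a-1, Mir302a and Mir145a were chosen after their values were seen. Mir26a-1 shares a mature sequence with Mir26a-2, so its counts are uncertain in the same way as those of Mir103-2.

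What miR-33 could pair with was looked up in the annotated transcripts, since target genes were not measured. The match to its seed is CAATGCA, searched on the transcript strand of annotated 3′ UTRs, 1 transcript a gene. Of 20331 such UTRs of at least 30 bases, with a median length of 820 bases, 6.56% held at least 1 match and 13 (0.0639%) at least 3. The 3156-base UTR of Abca1 held 3, at positions 135, 140 and 150, of which the first pair overlap. They lie together on chromosome 4, within 53033783 to 53033812 of mm10 on the minus strand, with the matches in capitals:
Abca1 3′ UTR, bases 131 to 160: tattCAATGCAATGCActtCAATGCAacga

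A list of 11 genes of cholesterol export, release, HDL uptake, storage, steroidogenesis and fatty acid oxidation was searched, chosen in part because miR-33 is known to repress some of them. Of these 5 held a match: Abca1 with 3, Abcg1 with 2, and Cpt1a, Crot and Hadhb with 1 each. The other 6, Npc1, Npc2, Scarb1, Soat1, Star and Cyp11a1, held no CAATGCA in the UTR searched. The match to the miR-103 and miR-107 seed, ATGCTGC, stood in 10.3% of all UTRs and in 2 of the 11, Abcg1 and Star, with 1 each. A match is a string of letters and not a measured site.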

How the data were processed

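Small RNA counts of 2 libraries of 1 group were used. The deposited values are raw read counts for each miRNA gene, on build mm10 with annotation GENCODE M21, per the text files deposited with them. Aligner, counter and trimming: not given in the sources used here. Count columns carry no names, and the strand-specific column 3 was taken from its layout and totals as the strand of the gene. The 4 summary lines stayed out of the miRNA totals. All 2202 identifiers matched GENCODE M21.

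CPM, shares, Wilson intervals and log2 ratios were computed (TMM factors 1.16 and 0.862 from detected genes, prior count 0.5), with exact Clopper-Pearson intervals and exact binomial tests over all detected genes (Benjamini-Hochberg, 0.05, absolute log2 ratio of at least 1). A quasi-likelihood test could not be fitted to 1 library against 1. The labels describe the females differently but give the same donor identifier, and whether the libraries come from separate animals is unclear. The binomial p-values ask whether a gene's reads differ between these libraries by more than random sampling of reads would give. They hold no estimate of the variation between libraries or animals. The procedure was tested on simulated libraries that held counting noise only, with and without changed genes. Such libraries cannot show how it fares where libraries differ beyond counting noise, as these do. Alternatives were other scalings, including DESeq2 size factors, other columns, denominators and count minimums, thinning, the edgeR exact test and each replicate left out.

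The members, lists and rules were chosen with earlier results of these data known. Named genes are the members, the 3 genes nearest to each in level, genes sharing seed letters, and the 2 most abundant genes of each lipid role reported. Tissue markers and the lipid genes that passed the test are named besides. The 11 genes searched for seed matches were chosen later. Some results of these lists are not reported here. Sequences came from RefSeq (GRCm38.p6) and GENCODE transcripts. Software: edgeR 4.0.16 and DESeq2 1.42.0 in R 4.3.3; scipy 1.17.1, numpy 2.4.6, pandas 2.3.3 and matplotlib 3.10.9 in Python 3.11.15; RNAfold 2.7.2.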

Additional observations from a re-analysis of the deposited data

How the results depend on the processing

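The members' combined share of 0.277% was 0.106% with all reads of the libraries in the totals. It ranged from 0.167% to 0.388% when either replicate was left out. The other 3 denominators or columns moved it by less than the spread between replicates. The count of 64 genes called between replicates, of 358 tested, became 97 under library totals alone. It became 6 in the edgeR exact test under a common dispersion. With a count minimum of 100, fewer genes were tested, and 37 of 246 were called. Under library totals alone the log2 ratio of Mir103-1 reversed to 0.32, and Mir107 and Mir103-2 passed the ratio minimum at 1.22 and 1.31. The other 5 alternatives that gave a value for them left the calls of Mir107, Mir103-2 and Mir33 as they were. The edgeR dispersion was estimated from the same pair of libraries, so that test gives no check on them. With the deeper library thinned, Mir103-1 fell under the count minimum and gave no value. No paired analysis was possible because the series holds 1 group. Counts of 16 to 131 limit the precision of Mir103-1, Mir33 and Mir103-2.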
